A study of Mus musculus with 8 samples.

Results

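The 10 genes described here encode the transcription factor NF-κB and the proteins that hold it in check. They are the 5 subunit genes Nfkb1, Nfkb2, Rel, Rela and Relb, and the 5 genes of inhibitors and regulators Nfkbia, Nfkbie, Nfkbiz, Bcl3 and Tnfaip3. They were chosen by name from the 20887 genes that could be named on the array, and a gene is represented by the brightest of its probes over all arrays. The array carried 12 probes for them, with a pair each for Nfkb1 and Relb and a single probe for each of the others. All 10 genes passed the filter on dim probes (mean log2 intensity of at least 6). Their probes were flagged as well above background in 158 of 160 readings (10 genes in 16 channels). Both exceptions were Rel in untreated cells of replicate 1, in WT and in KO.

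The macrophages came from the peritoneal cavity of C57BL/6 mice with the genotype LysMCre-fur(fl/fl), called KO here, and of WT littermates. LysMCre drives Cre from the lysozyme M locus (Lyz2), so Furin is deleted only in cells that express it, chiefly macrophages and granulocytes, and Lyz2 itself is altered in KO cells. Peritoneal cells were plated, non-adherent cells were washed off, and the adherent cells were left untreated or were stimulated with LPS, the bacterial lipopolysaccharide, at 1 μg/ml for 1, 4 or 24 h. Each of the 4 time points had 2 Agilent 2-colour arrays, called biological replicates 1 and 2 by the labels, and WT and KO RNA of that time point were hybridised to an array together, each with its own dye. The deposited description of cell culture names a stimulation of 4 h throughout, whereas the sample titles give the individual times, which were followed. KO was in Cy5 on the arrays of replicate 1 and in Cy3 on those of replicate 2, so replicate and dye cannot be told apart. How many mice a replicate came from was not given in the sources used here.

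NF-κB is a family of dimers built from subunits that share a Rel homology domain. Rela, Relb and Rel carry transactivation domains, while Nfkb1 and Nfkb2 encode the precursors p105 and p100, which are processed to p50 and p52. In resting cells the dimers are kept in the cytoplasm by IκB proteins. LPS acts through TLR4 to activate the IκB kinase complex (IKK), the IκB proteins are degraded, and the dimers enter the nucleus and bind κB sites in DNA. Several genes of the family are themselves NF-κB targets, which gives the pathway its feedback loops in macrophages.

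Upstream sequences of the members were searched for the κB consensus, and a stretch is shown for each member that held a match. Members without a match rose after LPS as well. RefSeq sequences of the assembly GRCm38.p6 covered 7 of the 10 members with 10 annotated starts, and the 250 bases before each start were searched on both strands. At least 1 match was found for 5 of the 7 genes and 7 of the 10 starts, and 11 matches were found in all, counting overlapping ones. Of 32851 such windows over all genes, 7.25% held a match, as did 8.23% of 27025 genes with at least 1 start. The stretches below run 5′ to 3′ on the strand of the gene, and capitals mark the matches. A match is a string of letters and was not tested for binding.
Nfkb2, chr19:46304673-46304736, plus strand: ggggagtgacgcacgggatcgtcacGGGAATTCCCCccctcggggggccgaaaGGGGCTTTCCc
Rel, chr11:23771026-23771086, minus strand: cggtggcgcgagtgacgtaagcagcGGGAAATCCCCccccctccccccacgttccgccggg
Nfkbia, chr12:55492648-55492701, minus strand: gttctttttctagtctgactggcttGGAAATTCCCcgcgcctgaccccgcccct
Nfkbie, chr17:45555569-45555628, plus strand: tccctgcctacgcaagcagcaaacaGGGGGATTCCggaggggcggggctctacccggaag
Tnfaip3, chr10:19015411-19015560, minus strand: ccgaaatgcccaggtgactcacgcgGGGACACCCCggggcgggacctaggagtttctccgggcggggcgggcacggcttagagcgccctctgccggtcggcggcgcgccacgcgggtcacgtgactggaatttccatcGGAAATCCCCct

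In Nfkb2, Rel and Tnfaip3 some of the letters in capitals read as a match on both strands. The matches of Nfkb2 lay 39 to 29 and 11 to 2 bases before the first start, that of Nfkbia 29 to 20, and that of Nfkbie 106 to 97. Those of Rel spanned 92 to 82 bases before the start, and those of Tnfaip3 125 to 116 and 12 to 3. The other starts of Nfkb2 lie downstream of the first and held 1 match each, and no match was found in these windows for Rela, Bcl3 or the second start of Tnfaip3. Nfkb1, Relb and Nfkbiz were not analysed here for sequence.

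Between 45.1% and 51.3% of the gene spots were well above background in Cy3, and between 43.8% and 48.0% in Cy5. The number of arrays limits the precision. The targeted gene Furin was lower in KO on the 6 arrays of untreated, 1 h and 24 h cells, with log2 KO/WT ratios from -0.85 to -0.55. On the 4 h arrays the ratios were 0.00023 and 0.33, so Furin was not lower in the RNA labelled KO at that time point. The paper reports a nearly complete loss of Furin mRNA in KO macrophages, which is more than these array ratios show at any time point. Lyz2, which carries the Cre, was lower in KO on all 8 arrays, from -1.85 to -0.74, with -1.04 and -1.13 on the 4 h arrays. Of 7 macrophage markers, 6 were measured (Adgre1, Itgam, Csf1r, Cd14, Mertk and Lyz2) and all 6 were well above background in every channel. So were 7 of 7 B cell, 5 of 7 T and NK cell (not Ncr1 or Klrb1c), 6 of 7 mast cell (not Ms4a2), 2 of 6 measured neutrophil (Elane and Camp) and 2 of 7 mesothelial and fibroblast markers (Col1a2 and Dcn), so markers of other cell types were measured in these adherent cells as well. In bulk RNA such as this, fewer cells of a type and less RNA per cell cannot be told apart.

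Among the subunits, Nfkb1, Nfkb2 and Rel were highest at 4 h and had dropped by 24 h, and Rela and Relb moved within a narrower range. The values below are normalized log2 intensities, given for replicate 1 and then replicate 2. Levels are compared within a gene only, because probes differ in brightness.

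Nfkb1 encodes p105 and p50. In WT its log2 intensities were 10.83 and 10.61 untreated, 11.73 and 11.58 after 1 h, 13.89 and 13.73 after 4 h and 11.31 and 11.33 after 24 h. In KO they were 10.57 and 11.18 untreated, 11.57 and 11.91 after 1 h, 14.14 and 14.03 after 4 h and 11.02 and 11.17 after 24 h. The 4 h arrays stood above all others in both genotypes, and in KO the 24 h arrays overlapped with the untreated ones.

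For Nfkb2, which encodes p100 and p52, WT gave 11.62 and 11.61 untreated, 13.14 and 13.14 after 1 h, 14.61 and 14.48 after 4 h and 12.58 and 12.71 after 24 h. KO gave 11.41 and 11.27 untreated, 12.98 and 12.98 after 1 h, 14.87 and 14.51 after 4 h and 12.87 and 12.45 after 24 h. The order was the same in both genotypes, untreated, 24 h, 1 h and 4 h from low to high, with no overlap between neighbouring time points.

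The c-Rel gene Rel had WT intensities of 6.47 and 6.67 untreated, 8.47 and 8.47 after 1 h, 8.73 and 8.74 after 4 h and 6.97 and 7.01 after 24 h. Its KO intensities were 6.68 and 6.71 untreated, 8.59 and 8.36 after 1 h, 9.10 and 8.93 after 4 h and 7.09 and 7.09 after 24 h. Neither genotype showed overlap between neighbours in the order untreated, 24 h, 1 h, 4 h.

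Rela, which encodes the p65 subunit, measured 14.65 and 14.58 untreated, 15.64 and 15.33 after 1 h, 15.76 and 15.54 after 4 h and 14.13 and 13.96 after 24 h in WT. In KO the readings were 14.37 and 14.65 untreated, 15.34 and 15.64 after 1 h, 15.63 and 15.44 after 4 h and 14.10 and 14.22 after 24 h. The 24 h arrays were the lowest in both genotypes, and the 1 h and 4 h arrays overlapped.

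Relb is the partner of p52 in the non-canonical pathway. WT cells gave 12.69 and 12.60 untreated, 13.34 and 13.27 after 1 h, 13.25 and 12.99 after 4 h and 12.07 and 12.02 after 24 h for it. KO cells gave 12.23 and 12.45 untreated, 13.14 and 13.20 after 1 h, 13.11 and 13.09 after 4 h and 12.05 and 12.10 after 24 h. From low to high the order was 24 h, untreated, 4 h and 1 h in both genotypes, and no neighbours overlapped.

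Of the inhibitors and regulators, Nfkbie and Nfkbiz were highest at 1 h, Bcl3 was highest at 4 h, and the 1 h and 4 h arrays overlapped for Nfkbia in both genotypes and for Tnfaip3 in WT. Nfkbia encodes IκBα, the main cytoplasmic inhibitor. Its WT intensities were 14.63 and 14.72 untreated, 17.22 and 16.92 after 1 h, 17.00 and 16.91 after 4 h and 16.09 and 16.04 after 24 h. Those of KO were 14.62 and 14.86 untreated, 16.91 and 17.04 after 1 h, 16.92 and 17.23 after 4 h and 16.11 and 16.35 after 24 h. All 1 h and 4 h arrays stood above the 24 h arrays, which stood above the untreated ones.

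Nfkbie encodes IκBε, another cytoplasmic inhibitor. WT readings were 11.87 and 12.13 untreated, 13.95 and 13.95 after 1 h, 13.63 and 13.53 after 4 h and 11.65 and 11.89 after 24 h. KO readings were 11.77 and 12.09 untreated, 13.75 and 13.78 after 1 h, 13.54 and 13.55 after 4 h and 11.81 and 11.70 after 24 h. The 24 h and untreated arrays overlapped, and the 1 h arrays were the highest in both genotypes.

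Nfkbiz encodes the nuclear protein IκBζ, a coactivator needed for secondary response genes such as Il6. It gave 8.71 and 8.54 untreated, 14.75 and 14.29 after 1 h, 13.07 and 12.85 after 4 h and 11.11 and 10.77 after 24 h in WT. It gave 8.24 and 8.59 untreated, 14.16 and 14.51 after 1 h, 13.23 and 12.98 after 4 h and 10.91 and 10.94 after 24 h in KO. No neighbouring time points overlapped, and the 1 h arrays were the highest.

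Bcl3 encodes another nuclear IκB protein, which binds p50 and p52 homodimers. In WT the intensities were 12.92 and 13.07 untreated, 14.01 and 13.92 after 1 h, 15.58 and 14.97 after 4 h and 13.93 and 13.76 after 24 h. In KO the intensities were 12.81 and 12.77 untreated, 14.04 and 14.08 after 1 h, 15.17 and 15.55 after 4 h and 13.79 and 13.93 after 24 h. The 4 h arrays were the highest, and the 24 h and 1 h arrays overlapped in WT but not in KO.

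Tnfaip3 encodes A20, a ubiquitin-editing enzyme that shuts off signalling to IKK. WT arrays read 12.19 and 12.30 untreated, 16.44 and 16.07 after 1 h, 16.41 and 16.24 after 4 h and 14.73 and 14.66 after 24 h. KO arrays read 12.39 and 12.49 untreated, 16.03 and 16.13 after 1 h, 16.40 and 16.52 after 4 h and 14.82 and 14.88 after 24 h. All untreated arrays lay below all 24 h arrays, and in KO the 4 h arrays stood above the 1 h arrays.

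**Figure D1:**
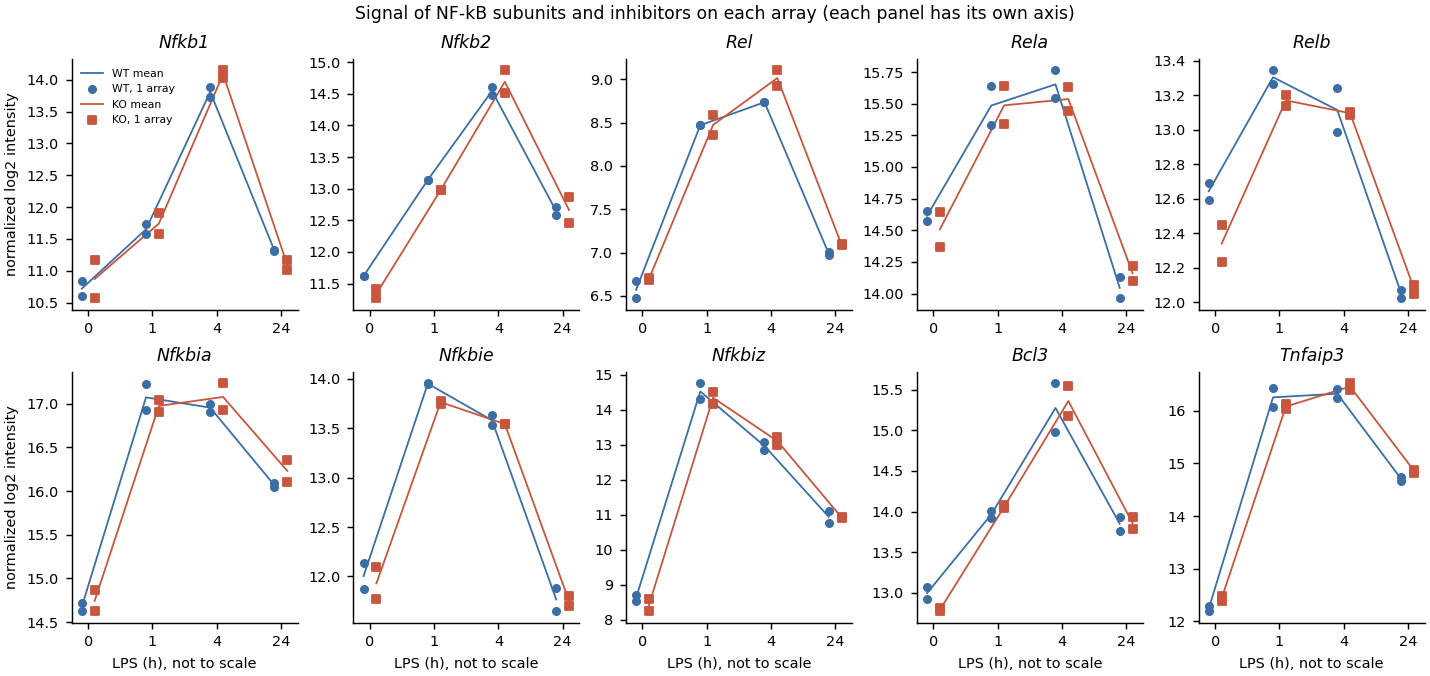
Normalized log2 intensity (y axis, a separate axis per gene) of the 10 members by hours of LPS (x axis, not to scale). Circles (WT) and squares (KO) are single arrays, 2 per genotype and time point, and lines join their means; the 24 h signals lie below the 4 h signals for every member in both genotypes.

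After 1 h of LPS, all 10 members rose in WT and all 10 in KO (limma, adjusted p under 0.05), where 3.36% of all genes and transcripts tested rose in WT and 3.09% in KO. Nfkbiz rose most among them, by 5.89 ± 0.19 on the log2 scale (± SE, n = 2) or 59.5-fold in WT, and by 5.92 ± 0.19 or 60.6-fold in KO. Tnfaip3 followed with 16.1-fold in WT and 12.4-fold in KO. Nfkbia was 5.27-fold higher in WT and 4.70-fold higher in KO, and Nfkbie 3.86-fold and 3.57-fold. Of the subunits, Rel showed the largest change, with a log2 change of 1.90 ± 0.10 in WT and 1.78 ± 0.10 in KO. Nfkb2 changed by 1.52 and 1.64, Nfkb1 by 0.93 and 0.87, Rela by 0.87 and 0.98, and Relb by 0.66 and 0.83. Bcl3 rose by 0.97 in WT and 1.27 in KO. The median of the members was 1.71 in WT and 1.71 in KO, beside -0.02 in each over all genes and transcripts tested, and the adjusted p ran from 2.48e-10 for Tnfaip3 to 0.00363 for Nfkb1 in WT. The call for Bcl3 in WT was lost without untreated replicate 1 (log2 change 0.89, adjusted p = 0.0503, limma), and that for Nfkb1 in KO without untreated replicate 1 (0.56, adjusted p = 0.0811) or without replicate 2 at 1 h (0.70, adjusted p = 0.112). Of the marker sums, given as log2 values of the summed intensity, that of the T and NK cell markers stood higher at 1 h than in untreated KO (14.45 to 14.67 and 14.02 to 14.22), and that of the neutrophil markers higher than in untreated WT (11.09 to 11.16 and 10.99 to 11.02). Their part in the 1 h values was not tested.

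After 4 h all 10 members were again higher than in untreated cells in both genotypes, against 15.5% of all genes and transcripts in WT and 16.3% in KO. The RNA labelled KO at 4 h is that in which Furin was not lower. Nfkbiz stood 20.2-fold above untreated in WT and 25.7-fold in KO, and Tnfaip3 16.9-fold and 16.2-fold. Of the precursor genes, Nfkb1 rose mainly between 1 h and 4 h, and its log2 changes from untreated were 3.09 ± 0.18 in WT and 3.21 ± 0.18 in KO. For Nfkb2 the changes were 2.93 ± 0.14 and 3.35 ± 0.14. Relb had the smallest change, 0.47 ± 0.11 in WT (adjusted p = 0.00303, limma) and 0.76 ± 0.11 in KO. The WT call of Relb was lost without replicate 1 at 4 h (0.34, adjusted p = 0.0548). Medians of the members were 2.28 in WT and 2.45 in KO, with 0.00 in each over all genes and transcripts. The marker sums of B cells, of T and NK cells and of macrophages stood lower at 4 h than in untreated cells, with no overlap in either genotype. The log2 sum of the B cell markers was 16.12 to 16.50 in untreated WT and 15.17 to 15.44 in WT at 4 h, and 16.27 to 16.82 and 14.79 to 15.39 in KO. For the T and NK cell markers it was 13.44 to 14.26 and 12.56 to 13.23 in WT, and 14.02 to 14.22 and 12.77 to 12.87 in KO. For the macrophage markers it was 19.02 to 19.29 and 18.46 to 18.75 in WT, and 18.77 to 18.79 and 18.47 to 18.58 in KO. In WT the neutrophil sum was also lower (10.89 to 10.94) and the mesothelial and fibroblast sum higher (10.18 to 10.40, from 9.79 to 9.86 untreated), while the KO ranges of these lists overlapped. Their part in the 4 h values of the members, and in the changes from 1 h to 4 h and from 4 h to 24 h, was not tested.

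From 1 h to 4 h the members parted. Nfkb1, Nfkb2 and Bcl3 rose further in both genotypes, by 2.15, 1.41 and 1.31 in WT and 2.35, 1.71 and 1.30 in KO. In KO, Rel (0.54 ± 0.10, adjusted p = 0.000992, limma) and Tnfaip3 (0.38 ± 0.12, adjusted p = 0.0277) were also called higher. The corresponding WT values were 0.27 for Rel (adjusted p = 0.0766, limma) and 0.07 for Tnfaip3 (adjusted p = 0.766). With a replicate block, here terms for replicate number and dye in the limma fit, the adjusted p of Rel in WT was 0.0479. Nfkbiz fell in both genotypes, with log2 changes of -1.56 ± 0.19 in WT and -1.24 ± 0.19 in KO. Nfkbie was lower in WT at -0.37 ± 0.12 (adjusted p = 0.0370, limma). This call was lost on leaving out either replicate at 1 h or at 4 h, though the log2 change stayed between -0.42 and -0.32. It was also lost with the processed signals of the scanner software (-0.29, adjusted p = 0.0774). The KO value of Nfkbie was -0.22 (adjusted p = 0.221). The KO call of Tnfaip3 was lost without replicate 1 at 1 h (0.33, adjusted p = 0.0860) or replicate 2 at 4 h (0.32, adjusted p = 0.142). In WT, 3 members were thus higher and 2 lower, and 5 were higher and 1 lower in KO. Over all genes and transcripts, 14% were higher and 15.6% lower in WT, and 15% higher and 16.8% lower in KO, so the shares of members called lower, 2 of 10 and 1 of 10, were near the background.

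By 24 h all 10 members had fallen from their 4 h level in both genotypes, where 14.6% of all genes and transcripts fell in WT and 15.1% in KO. The largest drop was that of Nfkb1, with a log2 change of -2.49 ± 0.18 in WT and -2.99 ± 0.18 in KO. The smallest was that of Nfkbia, at -0.89 ± 0.14 and -0.85 ± 0.14. The median of the members was -1.68 in WT and -1.70 in KO, beside -0.01 in each over all genes and transcripts. Compared with untreated cells, Tnfaip3 was still 5.47-fold higher in WT and 5.32-fold in KO, Nfkbiz 4.98-fold and 5.68-fold, and Nfkbia 2.62-fold and 2.81-fold. Nfkb2 (1.03 in WT and 1.32 in KO, log2), Bcl3 (0.85 and 1.07) and Rel (0.42 and 0.40) were also higher in both genotypes.

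Rela and Relb fell below their untreated level at 24 h in WT. There the log2 change was -0.57 ± 0.15 for Rela (adjusted p = 0.00874, limma) and -0.60 ± 0.11 for Relb (adjusted p = 0.000599). In KO it was -0.35 ± 0.15 for Rela (adjusted p = 0.106) and -0.27 ± 0.11 for Relb (adjusted p = 0.0875), and with the replicate block both passed, at 0.0350 and 0.0395. With the scanner's processed signals Relb passed in KO as well (-0.27, adjusted p = 0.0238). Nfkb1 was higher in WT (0.60 ± 0.18, adjusted p = 0.0185) and was 0.22 ± 0.18 in KO (adjusted p = 0.441). Nfkbie passed in neither genotype, with -0.24 in WT (adjusted p = 0.196) and -0.18 in KO (adjusted p = 0.364). In WT, 7 members were higher and 2 lower, beside 13.5% and 16.9% of all genes and transcripts, so that the share of members called lower was near the background. In KO 6 were higher, beside 12.8%.

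Several calls of these smaller changes at 24 h were lost when a single array was left out, while the log2 changes kept their direction. In WT the call of Nfkb1 was lost without either 24 h replicate (log2 change 0.61 without replicate 1 and 0.59 without replicate 2). That of Rel was lost without untreated replicate 1 (0.32) or 24 h replicate 2 (0.40). The call of Rela was lost without the same arrays (-0.53 and -0.49). In KO, that of Rel was lost without untreated replicate 1 (0.38) or either 24 h replicate (0.40 and 0.39). Nfkb1 was gained in KO without untreated replicate 2 (0.53). Each of these fits leaves a single array in a compared group. By 24 h the marker sums had moved in both directions. That of the macrophage markers was 17.89 to 18.01 in WT and 17.19 to 17.38 in KO, below its 4 h and untreated ranges. That of the B cell markers was 15.38 to 15.47 in WT, overlapping with 4 h, and 15.48 to 15.67 in KO, above its 4 h range. For the mast cell markers it was 13.01 to 13.49 untreated and 10.90 to 11.66 at 24 h in WT, and 13.28 to 13.87 and 11.92 to 11.95 in KO. For the mesothelial and fibroblast markers it rose from 9.79 to 9.86 to between 11.07 and 11.15 in WT and from 9.81 to 10.05 to between 11.40 and 11.46 in KO. T and NK cell marker sums were 13.14 to 13.32 in WT, overlapping with 4 h, and 13.40 to 13.41 in KO, above the 4 h range. Neutrophil marker sums stayed between 10.66 and 11.16 in all groups. The part of these cell types in the 24 h values of the members was not tested.

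**Figure D2:**
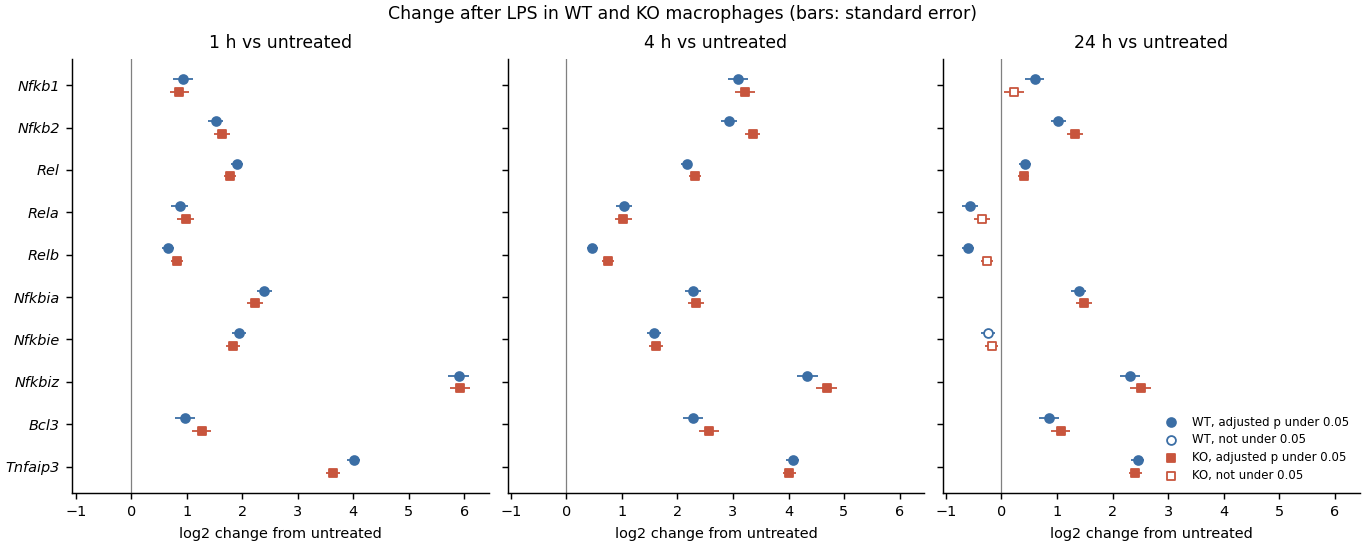
Log2 change of each member (y axis) from untreated to 1, 4 or 24 h of LPS (panels; x axis, log2 units), in WT (circles) and KO (squares), 2 arrays per group. Bars are standard errors and filled symbols have an adjusted p under 0.05; all symbols at 1 h and 4 h lie above 0, and at 24 h Rela, Relb and Nfkbie lie below it.

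Whether deletion of FURIN altered the expression of these genes was asked by the KO/WT ratio on each array. In untreated cells, 0 of 10 members differed between KO and WT in the limma fit, as did 0% of all genes and transcripts, with 1 member at an unadjusted p under 0.05 beside 5.75% of all, a share of members near the background. That member was Relb, lower in KO with log2 KO/WT ratios of -0.46 and -0.15 (mean -0.30, 95% interval -0.56 to -0.05, unadjusted p = 0.0234, adjusted p = 0.698, limma). Nfkb2 was next, with -0.21 and -0.35 (mean -0.28, interval -0.58 to 0.02). Tnfaip3 was above 0 on both arrays, at 0.20 and 0.19, and its interval ran from -0.09 to 0.49.

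At 1 h, 0 of 10 members and 0% of all genes and transcripts were called, and 0 members had an unadjusted p under 0.05 by limma, beside 5.46% of all. The mean ratios lay between -0.19 for Nfkbie and 0.09 for Bcl3. At 4 h, where Furin was not lower in the RNA labelled KO, 0 of 10 members were called beside 0.00812% of all, and Rel alone had an unadjusted p under 0.05, beside 4.31% of all. Its ratios were 0.37 and 0.19 (mean 0.28, interval 0.05 to 0.51, unadjusted p = 0.0228, adjusted p = 1.00, limma). At 24 h, 0 of 10 members were called beside 0.0244% of all, and 0 at an unadjusted p under 0.05 by limma (3.42% of all), with mean ratios from -0.22 for Nfkb1 to 0.16 for Nfkbia. The methods' t-test also called 0 members at each time point after adjustment; without adjustment it put 0 members under 0.05 untreated, 2 at 1 h, 0 at 4 h and 1 at 24 h.

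Averaged over the 4 time points, 0 of 10 members differed, beside 0.563% of all genes and transcripts, with 1 at an unadjusted p under 0.05 by limma, beside 3935 of 36947 over all, so the share of members was near the background. This was Rel, higher in KO on 7 of 8 arrays, with ratios from -0.12 to 0.37 and a mean of 0.13 (95% interval 0.01 to 0.24, unadjusted p = 0.0341, adjusted p = 0.403, limma). That mean takes in both 4 h arrays, on which Furin was not lower in the RNA labelled KO and which gave the highest and the third highest of the ratios of Rel. Without them the mean of Rel was 0.08 ± 0.06 (SE, n = 6 arrays, unadjusted p = 0.230, adjusted p = 0.802, limma), with 0 of 10 members and 0.1% of all genes and transcripts called, in a comparison added after the values were seen. Relb had ratios from -0.46 to 0.10 and a mean of -0.11 (interval -0.23 to 0.02). The other 8 members had means between -0.08 and 0.08. Single-array ratios of all members lay between -0.58 (Nfkbiz at 1 h, replicate 1) and 0.57 (Bcl3 at 4 h, replicate 2), and both arrays had the same sign in 19 of 40 pairings of member and time point. The replicates of Bcl3 at 4 h opposed each other at -0.40 and 0.57, as did those of Nfkb1 untreated at -0.27 and 0.57.

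The intervals give the size of difference that remains possible. Over members and time points, the 95% intervals reached down to a log2 ratio of -0.65 and up to 0.70, which is 0.635-fold and 1.63-fold. For the mean over the time points they reached from -0.29 to 0.29. A p that misses the threshold does not show that the genotypes had the same level. With the replicate block, 0 members were called at any time point or for the mean, with the lowest adjusted p at 0.139 (Relb untreated) and 0.119 (Rel, mean), whereas the calls over all genes and transcripts went from 0 to 393 untreated, 0 to 213 at 1 h, 3 to 210 at 4 h, 9 to 216 at 24 h and 208 to 2219 for the mean. The summed macrophage marker signal was lower in KO than in WT untreated, at 1 h and at 24 h, with log2 values at 24 h of 17.19 to 17.38 and 17.89 to 18.01, and Lyz2 is one of those markers. Other marker sums also differed between the genotypes without overlap. At 1 h the B cell sum was 16.64 to 16.78 in KO and 16.05 to 16.45 in WT, the mast cell sum 13.41 to 13.79 and 13.34 to 13.35, and the neutrophil sum 10.93 to 11.03 and 11.09 to 11.16. At 4 h the mesothelial and fibroblast sum was 9.85 to 10.13 in KO and 10.18 to 10.40 in WT. At 24 h, by the values given above, the mast cell, mesothelial and fibroblast, B cell, and T and NK cell sums were all higher in KO. Their part in the ratios was not tested.

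**Figure D3:**
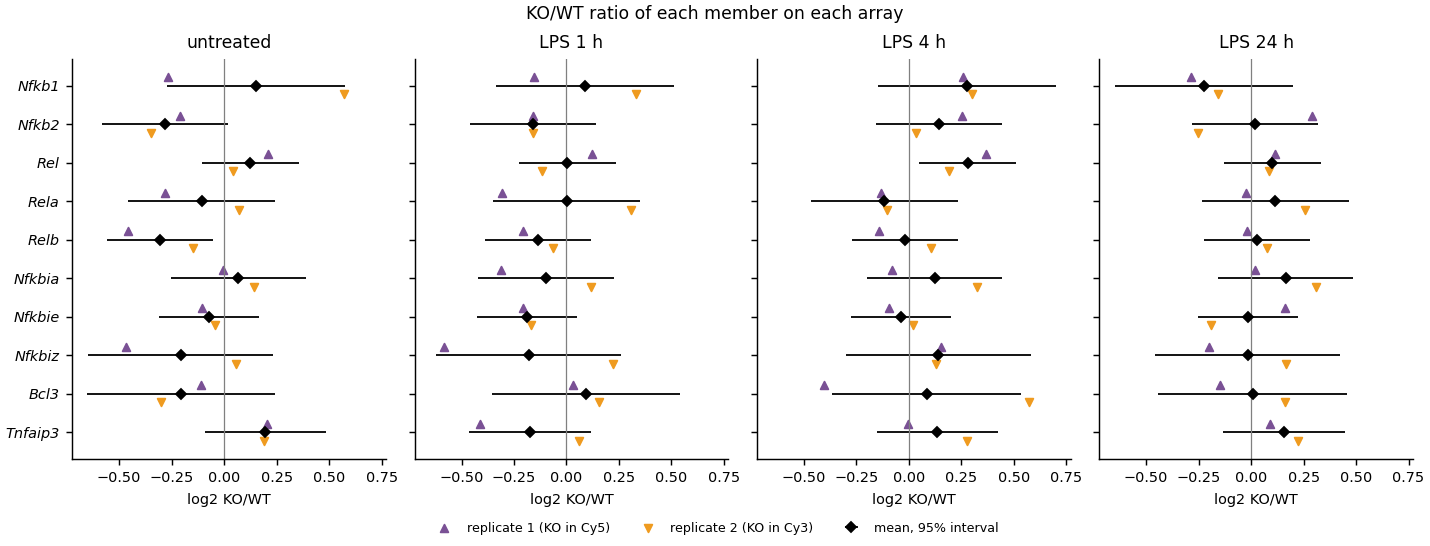
Log2 KO/WT ratio (x axis) of the 10 members (y axis) at each time point (panels). Triangles are single arrays, replicate 1 with KO in Cy5 and replicate 2 with KO in Cy3, and diamonds are means with 95% intervals from the limma fit; all means lie between -0.30 and 0.28, and only those of Relb untreated and Rel at 4 h have an interval that leaves out 0.

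The response to LPS was compared between genotypes as the change of the KO/WT ratio from untreated cells to each time point. Calls were made for 0 of 10 members and 0% of all genes and transcripts at 1 h, for 0 of 10 and 0% at 4 h, and for 0 of 10 and 0% at 24 h (limma). With the replicate block 0 members were called at any of these times, and the calls over all genes and transcripts were 0, 13 and 78. At an unadjusted p under 0.05 there was 1 member at 4 h, beside 2.9% of all genes and transcripts, and 0 at the other times, beside 1.4% at 1 h and 3.33% at 24 h. The one at 4 h was Nfkb2, whose log2 response was larger in KO by 0.47 and 0.38 on the arrays of replicates 1 and 2 (mean 0.43, 95% interval 0.00 to 0.85, unadjusted p = 0.0499, limma), and it rests on the 4 h arrays, where Furin was not lower in the RNA labelled KO. The drop of Relb below untreated at 24 h was smaller in KO by 0.44 and 0.23 (mean 0.33, interval -0.02 to 0.69, unadjusted p = 0.0641). Its untreated KO level was the lower one, so this difference shares the untreated arrays with the ratio given above. For Nfkb1 at 24 h, called higher in WT but not in KO, the difference was -0.38 with an interval of -0.97 to 0.22. For Rela at 24 h it was 0.22 with -0.27 to 0.72. The induction of Tnfaip3 at 1 h differed by -0.37 (interval -0.78 to 0.04). Nfkb1, Rela and Relb, called at 24 h in WT but not in KO, were thus not shown to respond differently.

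Other genes of the pathway were set beside the members, in lists written from general knowledge. Over all genes and transcripts tested, 3.36% were higher and 5.17% lower at 1 h in WT, 15.5% and 19.2% at 4 h, and 13.5% and 16.9% at 24 h. In KO the shares were 3.09% and 4.46%, then 16.3% and 19.7%, and 12.8% and 15.9%. Beside these shares, 2 of 12 genes lower at 4 h is near the background. The 2 other IκB genes, Nfkbib and Nfkbid, rose at 1 h and 4 h in both genotypes, and at 24 h Nfkbib was higher while Nfkbid was lower, with log2 changes of -1.53 ± 0.27 in WT and -1.49 ± 0.27 in KO. Of 12 genes of the IKK complex and its upstream kinases, 3 were higher and 1 lower at 1 h in WT, and 10 were higher and 2 lower at 4 h. In KO the counts were 4 and 1, then 10 and 2. Tab1, an adaptor of the kinase TAK1, fell at 1 h in both genotypes, with log2 changes of -0.72 ± 0.12 in WT and -0.44 ± 0.12 in KO. Among 12 ubiquitin ligases and adaptors, 5 were higher and 1 lower at 1 h and 8 higher and 3 lower at 4 h in WT, and 4 and 0, then 8 and 3, in KO.

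Of 9 deubiquitinases and partners of A20, 2 were higher and 1 lower at 1 h and 4 higher and 3 lower at 4 h in WT, with 2 and 0, then 5 and 3, in KO. Cyld, a deubiquitinase that restrains the pathway, had a log2 change of -1.52 ± 0.21 in WT and -1.40 ± 0.21 in KO at 4 h, and of -1.37 and -1.18 at 24 h. The 4 other inhibitors of RelA or p105 had 1 member higher and 2 lower at 1 h and 0 higher and 3 lower at 4 h in WT, and 1 higher and 1 lower, then 0 and 3, in KO. Pdlim2, a ubiquitin ligase for nuclear RelA, changed by -1.63 ± 0.11 in WT and -1.42 ± 0.11 in KO at 4 h, and Nkiras2, which binds IκB proteins, by -1.09 ± 0.13 and -1.17 ± 0.13 at 1 h. At 24 h Pdlim2 was instead above untreated, by 0.88 ± 0.11 in WT and 0.97 ± 0.11 in KO. Its list then had 2 genes higher and 1 lower in WT, and 3 and 1 in KO. Of the 39 genes of these 5 lists together, 13 were higher and 5 lower at 1 h in WT, 24 and 11 at 4 h, and 16 and 10 at 24 h. In KO these counts were 13 and 2, then 25 and 11, and 18 and 10.

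Of the 18 listed NF-κB target genes, 17 were measured. In each genotype 15 of them were higher at 1 h, 16 at 4 h and 15 at 24 h. Il6, a cytokine gene, had the largest change, at 9.19 ± 0.28 in WT and 7.88 ± 0.28 in KO at 1 h and at 9.55 and 8.71 at 4 h. Tnf changed by 6.81 ± 0.26 and 6.40 ± 0.26 at 1 h, and Ptgs2, which encodes cyclooxygenase 2, by 9.23 ± 0.26 and 8.61 ± 0.26 at 4 h. At 24 h the changes were 9.42 and 7.96 for Il6 and 8.17 and 7.17 for Ptgs2. In WT the median log2 change of the targets over the LPS times was 3.32, then 5.50, then 4.73, beside 1.71, 2.28 and 0.73 for the members. From 4 h to 24 h, 8 of the 17 targets fell in WT and 10 in KO, beside 14.6% and 15.1% of all genes and transcripts, and 12 in each genotype had an unadjusted p under 0.05, beside 36.6% of all in WT and 37.5% in KO. The difference from the members was not tested. Of the 56 measured genes of these lists, 0 were called between KO and WT at any time point, in the mean or in the response (limma, without the replicate block). At an unadjusted p under 0.05 there were 8 of 17 targets and 5 of the 39 other genes in untreated cells, beside 5.75% of all genes and transcripts. At 1 h there were 0 and 2 (5.46% of all), at 4 h 2 and 2 (4.31%), at 24 h 3 and 0 (3.42%), and for the mean over the time points 8 and 5 (3935 of 36947). For the response to LPS there were 5 and 0 at 1 h (1.4% of all), 7 and 1 at 4 h (2.9%), and 6 and 2 at 24 h (3.33%), and these responses share the untreated arrays with the untreated ratios. The median log2 KO/WT ratio of the targets was 0.34 in untreated cells, -0.04 at 1 h, 0.02 at 4 h and -0.11 at 24 h. That of the 39 other genes was -0.04, 0.01, 0.02 and 0.05, and that of the members was -0.09, -0.12, 0.13 and 0.02, beside 0.00 over all genes and transcripts at each time. The median difference in log2 response, KO minus WT, was -0.40, -0.63 and -0.38 for the targets over the LPS times in order, and -0.02, 0.14 and 0.14 for the members.

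**Figure D4:**
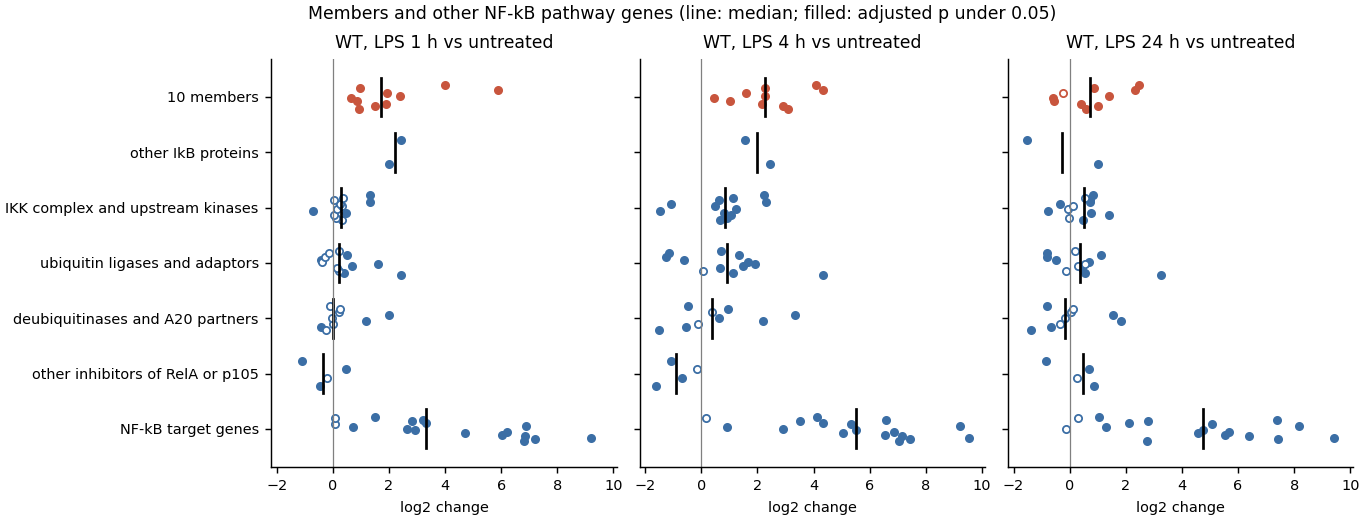
Log2 change after 1, 4 and 24 h of LPS in WT (panels; x axis) for the 10 members and for 6 lists of other NF-κB pathway genes (y axis). Points are genes, filled where the adjusted p is under 0.05, and vertical lines are medians; the members lie between the target genes and the signalling genes in their median at 4 h.

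The members fell into patterns that were described by Pearson's r over the 16 channels, which share arrays and time points. Nfkbia and Tnfaip3 were the closest pair (r = 0.996), followed by Nfkb2 and Bcl3 (0.976) and by Rela and Relb (0.970). Relb and Bcl3 were the least alike (0.524). Over all other named genes, those most like Nfkb1 were Ripk2 (0.991), a kinase of the NOD receptor pathway, and Tnfsf15 (0.989). For Nfkb2 they were Malt1 (0.984), a paracaspase upstream of IKK, and Exoc3l4 (0.983). Rel was most like Il23a (0.987), a subunit of IL-23, and Lif (0.981), a cytokine of the IL-6 family. Tnfaip2 (0.982) and Rbm7 (0.978) stood nearest to Rela, and Rbm7 (0.983) and Rnf2 (0.974) nearest to Relb.

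Among the inhibitors, Nfkbia was most like H3c4 (0.982) and Mki67 (0.981), and Nfkbie like Cd83 (0.988), an activation marker of antigen-presenting cells, and Tmem88 (0.987). Nfkbiz was nearest to Sde2 (0.988) and Tnfsf9 (0.986), the ligand of 4-1BB. Bcl3 was nearest to Gmeb1 (0.984) and Tiparp (0.983). Tnfaip3 was nearest to H3c4 (0.990) and to Zc3h12a (0.990), which encodes the RNase Regnase-1.

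The dimmer probes of Nfkb1 and Relb changed in the same directions after LPS as the brighter ones. For Nfkb1 the log2 change at 4 h was 2.77 in WT and 2.82 in KO at the dimmer probe, against 3.09 and 3.21 at the brighter one. For Relb it was 0.76 and 1.04 against 0.47 and 0.76, and at 24 h it was -0.43 and -0.14 against -0.60 and -0.27. The mean log2 KO/WT ratio over the time points was 0.22 at the dimmer and 0.07 at the brighter probe of Nfkb1, and -0.11 at both probes of Relb. The value of the dimmer Nfkb1 probe was larger than the mean reported for any member, of which Rel had the highest (0.13). It was not tested on its own.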

How the data were processed

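Expression was measured in 16 channels of 8 Agilent 2-colour arrays. The authors extracted the scans with Agilent Feature Extraction 10.7.3, and deposited the spot intensity of each channel with flags, and a matrix of Cy5/Cy3 log2 ratios normalized by loess and quantile methods, with dim genes removed. The deposited log2 matrix was used only as an alternative, and its columns correlated with the log2 ratios computed here at r from 0.987 to 0.996 (medians 0.0025 to 0.0095). Median intensities were processed in limma 3.58.1 (R 4.3.3, statmod 1.5.0) by normexp correction with an offset of 50, loess and quantile normalization. Replicate spots were averaged, and the brightest probe stood for a gene.

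Of 37018 genes and transcripts, 36947 had a mean log2 intensity of at least 6. KO/WT ratios were fitted with lmFit and eBayes with 1 coefficient per time point. LPS comparisons within a genotype used limma's separate-channel fit on 36927 of them, and 5000 drawn genes gave a correlation within spots of 0.102. Adjustment by Benjamini-Hochberg ran over all tested, with a threshold of 0.05. The script was tested on simulated data.

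Replicate numbers recur at each time point and mark the dye orientation. Deviations of same-numbered arrays correlated across genes (r from 0.475 to 0.679 over 6 pairs of time points for ratios, and from 0.214 to 0.565 over 12 for channels). Same-numbered arrays also share the dye orientation, so this correlation cannot tell a pairing of replicates from an effect of dye. A replicate block was fitted as an alternative. For LPS it added terms for replicate number and for dye, and for KO/WT ratios a term for replicate number, which is also the dye orientation. All arrays lie on 1 slide.

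The members, lists and comparisons were chosen with earlier results of these data known. Named genes are the 10 members in every comparison, for each member the 2 named genes with the highest Pearson r over the 16 channels, and, of the other pathway genes, the 2 largest mean rises and 2 largest mean falls at each LPS time among those called in both genotypes and any called between KO and WT. Nfkbib was named because its list holds 2 genes. Gene names came from the RefSeq table (55681 probes, of which 27509 were named). Upstream sequences are from RefSeq GRCm38.p6, and the array annotation uses another build, so no array positions are given.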

Additional observations from a re-analysis of the deposited data

How the results depend on the processing

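Each count of members was recomputed under up to 19 alternatives: other background corrections, normalizations and filters, the mean of all probes, the deposited values, the replicate block, the methods' t-test, each array left out and, chosen after seeing the data, both 4 h arrays left out. The counts of members called in either direction stayed within 1.5 times the reported ones except under the methods' t-test with Benjamini-Hochberg adjustment. Of the counts by direction, members lower at 24 h in WT went from 2 to 1 without untreated replicate 1 or 24 h replicate 2, and those lower from 1 h to 4 h in WT from 2 to 1 without either replicate of 1 h or 4 h or with the scanner's processed signals. Members lower at 24 h in KO went from 0 to 2 with the replicate block and to 1 with the processed signals, with which Rel did not pass the filter and 9 members were tested. In WT the t-test called 0 members at 1 h, 6 at 4 h, 0 at 24 h, 1 from 1 h to 4 h and 0 from 4 h to 24 h, and in KO 0, 1, 1, 0 and 0. Over all genes and transcripts past the filter (36947, less any with a missing reading on the compared arrays) its calls in the same order were 0, 1836, 12, 14 and 7 in WT, and 0, 775, 612, 366 and 1 in KO. Without adjustment it put 10, 9, 8, 5 and 10 members under 0.05 in WT, and 9, 10, 6, 6 and 9 in KO. How many of all genes and transcripts it put under 0.05 without adjustment was not counted, so these counts cannot be set against a background. It estimates the spread of each gene from the few arrays of that gene alone. With the replicate block, 6 members instead of 5 were called from 1 h to 4 h in WT, and 8 instead of 6 at 24 h in KO, while the calls over all went from 10928 to 12633 and from 10586 to 12358; it changed no other member call. With single arrays left out there were 9 to 10 members at 1 h in each genotype, 9 to 10 (WT) and 10 (KO) at 4 h, 6 to 9 (WT) and 5 to 7 (KO) at 24 h, 4 to 5 (WT) and 5 to 6 (KO) from 1 h to 4 h, 10 in each from 4 h to 24 h, and 0 for every KO/WT comparison. Over all genes and transcripts these fits called 1809 to 3308 (WT) and 1445 to 2878 (KO) at 1 h, 10983 to 12540 and 11166 to 13011 at 4 h, 9055 to 11441 and 8606 to 10907 at 24 h, 9181 to 10647 and 9497 to 11466 from 1 h to 4 h, and 8820 to 10739 and 9127 to 11072 from 4 h to 24 h. Between KO and WT, the fits with an array left out also called few or none over all genes and transcripts. For the mean over the time points they called fewer than the fit with all arrays. Apart from the t-test, which lost 78 of 86 calls of single members after LPS and gained 1, the alternatives lost 20 of 1402 recomputed calls and gained 5. No called value changed direction. Among values that were not called, 65 of 1412 recomputed KO/WT values and 8 of 228 recomputed LPS values changed sign. The signal of untreated Rel in replicate 1 was too close to background to be flagged as above it, and its fold changes rest on that dim baseline.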
